A study of Mus musculus with 10 samples.

Results

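The histone genes of the mouse were followed through the formation of blood cells from embryonic stem cells in culture. Members were chosen by name alone, as genes whose symbol begins with Hist1h to Hist4h or with H1f, H2ac, H2af, H2ax, H2az, H2bc, H3c, H3f, H4c or H4f. The rule found 89 of the 55487 genes in the count tables. Of these, 67 are protein-coding genes of the histone gene clusters (6 H1, 18 H2A, 18 H2B, 12 H3 and 13 H4), 13 are variant genes, 8 are pseudogenes and 1 is an antisense transcript of H3f3a. All 67 cluster genes passed the filter on low counts, as did 10 variant genes, 6 pseudogenes and the antisense transcript. The variant genes H2afb1, H2afb2 and H2afb3 had 0 counts in all 10 libraries, which allows at most 0.0510 to 0.120 CPM (counts scaled to the depth of a library of 1e6 counts) depending on the library. These limits and all other counting limits cover counting error only.

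RNA of isolated nuclei was sequenced after removal of ribosomal RNA, with strand kept, at 5 stages with 2 libraries each. The ES stage was the undifferentiated HM-1 line grown with LIF, and HB (hemangioblast) cells were taken by their FLK1 from embryoid bodies after 3 days in serum. HB cells were then cultured further on gelatine in serum with added VEGF, IL-6 and D4T-conditioned medium, which the study does not list for the earlier stages. They were sorted into the first hemogenic endothelium (HE1, KIT+ TIE2+ CD41-), the second hemogenic endothelium (HE2, KIT+ TIE2+ CD41+) and hematopoietic progenitors (HP, KIT+ TIE2- CD41+). All stages came from this 1 line, which is used for gene targeting, and the labels name no genotype or agent that differs between stages beyond the differentiation itself. The study describes the replicates of a stage as biologically independent, while the labels only number them, and the p-values measure the spread between these libraries. The libraries held 24920434 to 58782055 counts. The summed markers of ES cells, hemangioblast and endothelium were highest at ES, HB and HE1, while those of blood progenitors overlapped between HE2 (1091 and 1530 CPM) and HP (1451 and 1146 CPM). Some of these marker lists hold genes of sorted proteins. Kdr (FLK1) is a hemangioblast marker, Tek (TIE2) an endothelial marker, and Itga2b (CD41) and Kit are blood progenitor markers. The levels of these lists are therefore not independent of the sorts. Kit, whose protein was used in all sorts from HE1 on, had 146 and 73.0 CPM in HE1 against 164 and 173 CPM in ES. HE1 replicate 2 had a summed level of 3 ES genes (Pou5f1, Nanog and Zfp42) of 49.0 CPM against 4.50 CPM in HE1 replicate 1, and a summed level of 4 muscle genes of 994 CPM against 630 CPM.

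Histone proteins package DNA into nucleosomes, built from H2A, H2B, H3 and H4, while linker histone H1 binds between them. The cluster genes are switched on as cells copy their DNA, through NPAT and the cyclin E kinase, and their mRNAs are the only cellular mRNAs known to end in a conserved stem-loop instead of a poly(A) tail. The protein SLBP binds this stem-loop and guides its cutting by the U7 particle, the use of the mRNA and its loss when DNA synthesis ends. The variant genes, such as those for H3.3, H2A.Z and H1.0, mostly lie outside the clusters, carry poly(A) tails and are used throughout the cell cycle. Because ribosomal RNA was removed rather than poly(A) RNA captured, both kinds of transcript could be read here.

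The stem-loop was searched in the annotated transcripts, since it separates both kinds of gene by sequence. Its 16 bases were found in 46 of 67 cluster genes, in 1 of 13 variant genes and in 12 other genes, which is 0.0217% of them. Among the 21 cluster genes without a match, 16 have an annotated end less than 40 bases after the coding sequence. Among the cluster genes the commonest of 8 forms was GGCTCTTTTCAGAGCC, present in 26 of them. A match could lie far inside the annotated transcript, 4884 bases before its end in Hist1h1d, 2445 in Hist4h4 and 1153 in Hist1h1e. The variant with a match was H2afx, which encodes H2A.X, the form of H2A phosphorylated at DNA breaks and known to make both a stem-loop and a polyadenylated mRNA. Below, the stem-loop is in capitals within 30 bases of each transcript, written as DNA, for genes that recur in the results.
Hist1h1e: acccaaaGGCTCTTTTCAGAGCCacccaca
Hist1h1t: acccaaaGGCTCTTTTAAGAGCCacttaca
Hist1h3e: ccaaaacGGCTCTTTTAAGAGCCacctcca
Hist1h4f: tctcaaaGGCCCTTTTCAGGGCCacccact
Hist4h4: ccacaaaGGCCCTTTTCAGGGCCcacaaag
H2afx: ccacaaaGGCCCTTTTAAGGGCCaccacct

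The classes also differed in the letters ahead of their starts. RefSeq windows of 250 bases before to 50 bases after the start were matched for 62 cluster and 12 variant genes (build GRCm38.p6) and searched on both strands. The CCAAT box was in every window of an H1, H2A, H2B or H3 cluster gene but in 3 of 12 H4 windows and 9 of 12 variant windows, against 37.4% of 32851 windows of all genes. TATAAA was in 56.5% of the cluster windows, in 1 of 12 variant windows and in 13.6% of all windows. The octamer ATTTGCAT, known from H2B promoters, was in 6 of 16 H2B and 7 of 18 H2A windows, from genes that can share a promoter between them, in no H1, H3 or H4 window and in 1.74% of all windows. AAACACA, an element known from H1 genes, was in 5 of 6 H1 windows and 7.18% of all windows. The 170 bases before the start are shown for the cluster genes with the largest rises in HB, Hist1h1e and Hist4h4, for a testis-type gene that was read in ES cells, Hist1h2ba, and for the H4 gene with the highest level per kilobase, Hist1h4k. They are written from the strand of the gene, and these motifs, on either strand, are in capitals.
Hist1h1e, chr13:23622559-23622728, minus strand: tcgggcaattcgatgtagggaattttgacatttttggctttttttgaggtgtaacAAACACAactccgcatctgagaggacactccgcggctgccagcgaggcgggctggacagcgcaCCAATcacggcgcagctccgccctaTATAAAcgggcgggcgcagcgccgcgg
Hist4h4, chr6:136804432-136804601, minus strand: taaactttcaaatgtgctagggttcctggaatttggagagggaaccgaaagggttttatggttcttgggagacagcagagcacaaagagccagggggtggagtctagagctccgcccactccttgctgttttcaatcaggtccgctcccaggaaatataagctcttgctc
Hist1h2ba, chr13:23934157-23934326, minus strand: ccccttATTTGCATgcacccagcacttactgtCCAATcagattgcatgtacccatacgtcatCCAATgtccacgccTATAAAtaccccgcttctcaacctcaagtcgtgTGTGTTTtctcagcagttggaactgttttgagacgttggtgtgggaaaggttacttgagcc
Hist1h4k, chr13:21750554-21750723, minus strand: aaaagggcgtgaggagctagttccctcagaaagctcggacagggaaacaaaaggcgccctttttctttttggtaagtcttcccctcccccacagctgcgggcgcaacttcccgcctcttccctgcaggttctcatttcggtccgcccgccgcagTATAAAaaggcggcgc

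Read pairs that mapped to several places were not counted. A median of 32.8% of the 100-base stretches of a cluster gene also occur in another gene, over 50% of them in 24 of the 67 genes and none in 9, against a median of 0% in the variants. Genes made up of such stretches still had counts, such as Hist2h2aa2 with 815 to 3319 in a library. How reads of near-identical members were divided cannot be told from the counts, and their levels are uncertain. With that limit, the highest levels per kilobase of exon, as CPM averaged over all libraries, were 594 for Hist1h1a and 421 for Hist1h1b among H1 genes, 364 for Hist1h2ak and 295 for Hist1h2ah among H2A genes, 1188 for Hist2h2bb and 257 for Hist1h2bj among H2B genes, 295 for Hist1h3e and 225 for Hist1h3i among H3 genes, and 855 for Hist1h4k and 749 for Hist1h4f among H4 genes. These levels also depend on the length of the annotated model, so a rank by them is not a rank by amount of RNA. Hist1h1d, with a model of 7425 bases, had 7189 to 24065 counts in a library. Hist1h1a, with 741 bases, had 5500 to 26249. The models of Hist1h1b, Hist1h2ak, Hist2h2bb, Hist1h3i and Hist1h4k have 0 bases after the coding end. The Hist2h2bb model shares 59.3% of its exonic bases with the gene model Gm42743 on the same strand, so that its reads cannot be assigned to it alone.

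Cluster histone RNA was highest in HB and lowest in HE1. The 67 genes together gave 6867 and 6423 CPM in the ES libraries, scaled by TMM as are all levels below, 9688 and 11192 CPM in HB, 5613 and 4184 CPM at HE1, 6533 and 10320 CPM at HE2, and 10743 and 6967 CPM at HP. Both HE1 libraries lay below all other libraries, while those of HE2 overlapped ES, HB and HP, and those of HP overlapped HB and HE2 but lay above ES. The mean in HB was 1.57 ± 0.18 times that in ES (SD, n = 2 per stage), and the mean in HE1 was 0.469 ± 0.108 times that in HB. HE2 stood at 1.72 ± 0.65 times HE1, and HP at 1.05 ± 0.46 times HE2. With 2 libraries against 2, an exact permutation test cannot give a two-sided p below 0.333, so these sums were not tested. In a bulk sample of nuclei, fewer cells that copy DNA and less histone RNA per nucleus cannot be told apart. RNA outside the nuclei was not measured apart, so these sums are not levels per whole cell.

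**Figure D1:**
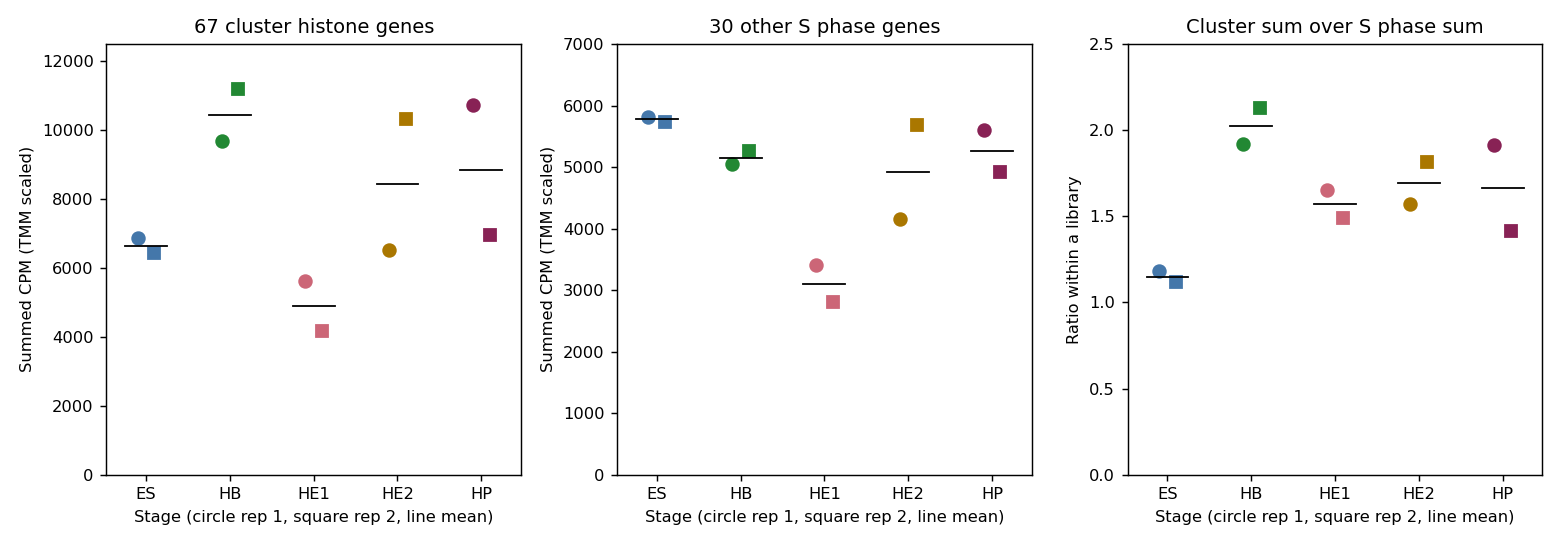
Summed level (CPM, TMM scaled) of 67 cluster histone genes and of 30 other genes of S phase, and the ratio of both sums within a library, by stage. Circles and squares are replicates 1 and 2 and lines are means of 2 libraries. Both sums are lowest in HE1, and the ratio is lowest in ES, at 1.12 and 1.18.

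Gene by gene the order was much the same. Of the 67 cluster genes, 48 had their highest mean in HB, 14 in HP, 4 in ES, 1 in HE2 and none in HE1, and 57 had their lowest mean in HE1. The highest stage mean of a gene was a median of 2.28 times its lowest. The make-up of the cluster RNA moved little: H4 genes took 27.8% to 31.6% of it over the libraries, H1 genes 24.3% to 27.4%, H2B genes 17.1% to 19.2%, H2A genes 12.6% to 14.7% and H3 genes 11.2% to 13.8%. The share of H3 genes was at least 13.5% in both ES libraries and at most 12.4% in all others.

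**Figure D2:**
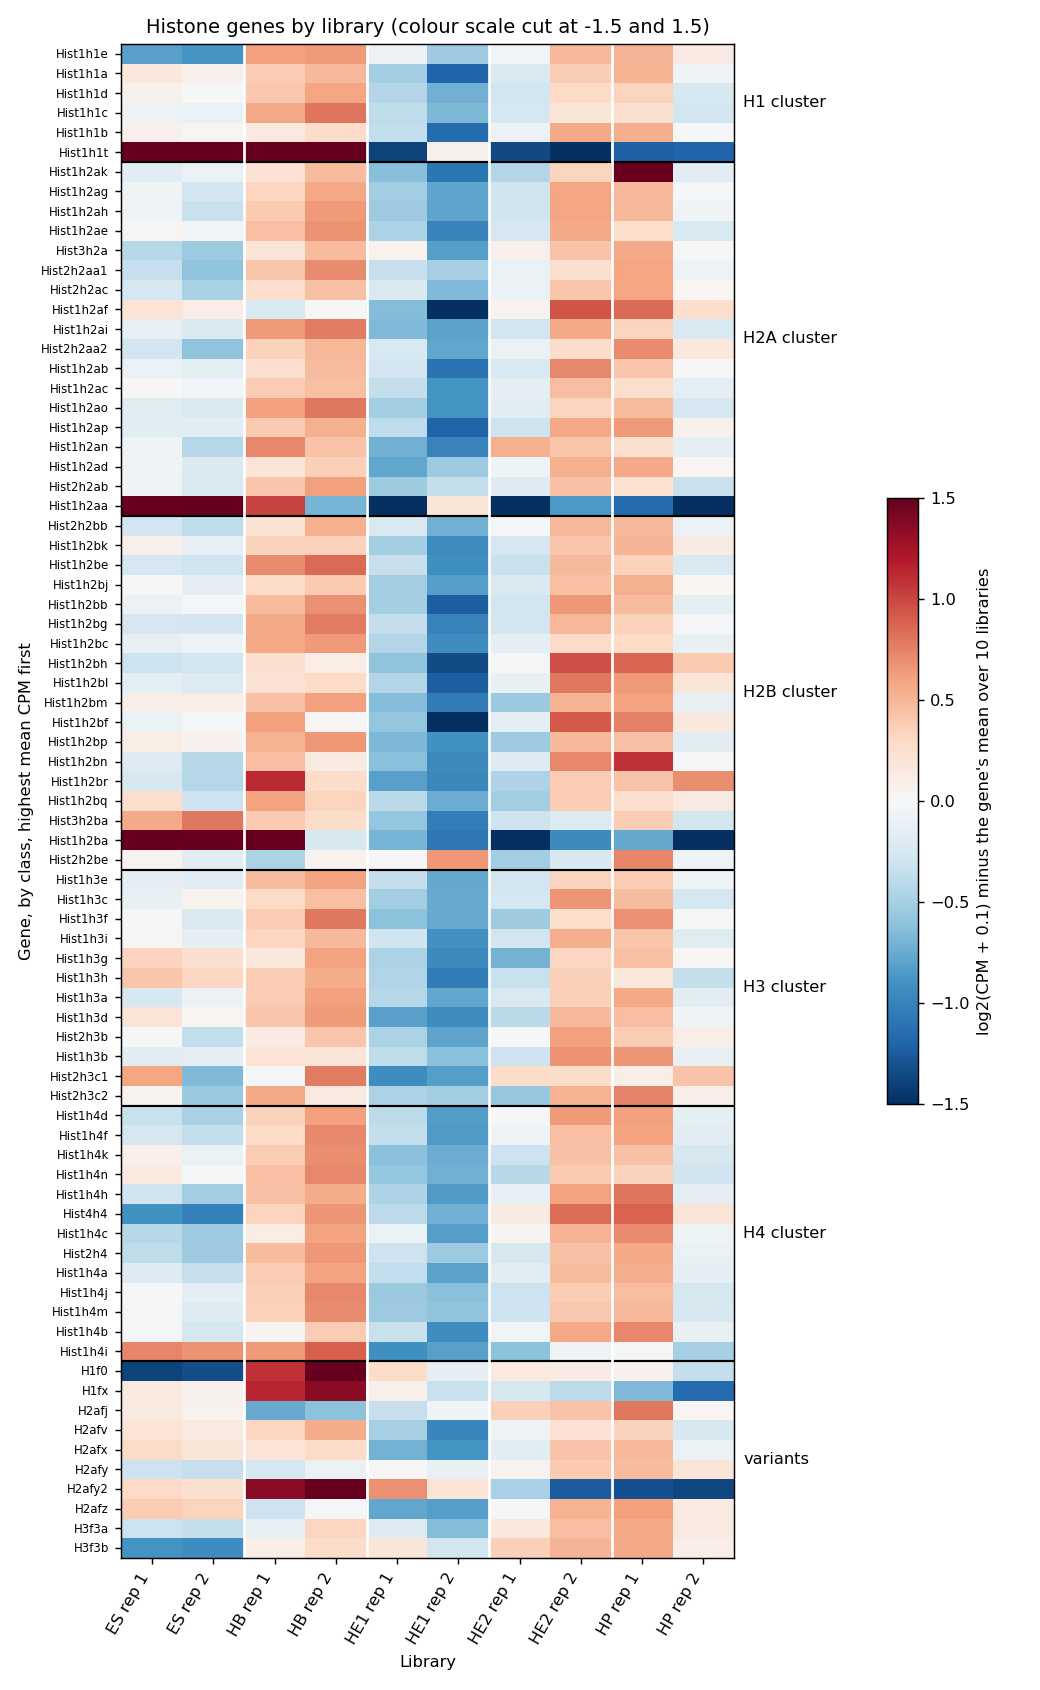
Each row is a cluster histone gene, grouped by class, or 1 of 10 variant genes, and each column a library. Colour is log2(CPM + 0.1) minus the mean of the gene over 10 libraries, cut at -1.5 and 1.5. HB columns are mostly red and HE1 columns mostly blue, while HE2 and HP replicates differ from each other.

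In HB against ES, the question was how histone genes stood when ES cells had formed mesoderm. A gene was called where edgeR's quasi-likelihood test gave a Benjamini-Hochberg adjusted p under 0.05 over all 22596 genes tested and the change was at least 2-fold. By this rule 6 cluster genes rose, against 11.5% of all genes, and 1 fell, against 17.3%, so that the share of called cluster genes was below the background in both directions. Their median log2 fold change was 0.58, against 0.00 for all genes, and 61 of 67 values were positive. The libraries of both stages did not overlap for 57 genes that were higher in HB (37.7% of all genes) and 4 that were lower (41%). At the adjusted p alone, 22 genes were higher (17.8% of all genes) and 1 was lower (22.6%).

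Hist1h1e, a main H1 linker histone of dividing cells, had 240 and 227 CPM in ES, 643 and 653 in HB, 395 and 289 at HE1, 409 and 595 at HE2, and 599 and 458 at HP. Both ES libraries lay below all others and both HB libraries above all others. Hist1h1e rose in HB by 1.47 ± 0.23 on the log2 scale (SE; adjusted p = 0.000524 by edgeR's quasi-likelihood test), and 25.7% of its exonic bases are shared with the model of Hist1h2be, whose call is therefore not independent of it. Hist4h4, an H4 gene on chromosome 6 away from the large clusters, had 80.7 and 75.1 CPM in ES and 191 and 240 in HB, with 116 and 91.8 at HE1, 164 and 271 at HE2, and 280 and 173 at HP. Its ES libraries were below all others, and it rose in HB by 1.47 ± 0.28 (adjusted p = 0.00184). Both calls held without any single library.

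Hist1h2br, an H2B gene, rose in HB by 1.09 ± 0.32 (adjusted p = 0.0209), from 10.1 and 8.89 CPM to 26.1 and 14.5 CPM. The HB libraries did not overlap those of ES but were far from each other, and the call was lost without ES replicate 1 (adjusted p = 0.0690), ES replicate 2 (0.115) or HB replicate 1 (0.220), and by limma-voom the change was just under 2-fold (adjusted p = 0.0237). The other genes that rose were Hist1h2be, Hist2h2aa1 and Hist2h4, by 1.06, 1.03 and 1.02. Hist2h2aa1 shares 90.3% of its exonic bases with the gene model Gm20634 on the same strand. Hist1h1e and Hist1h2be share 16.6% and 7.20% of theirs with Gm11398. Reads on these shared bases cannot be assigned to the histone genes alone. The number of called rises was 2 without ES replicate 2 (7.9% of all genes in that fit), 10 without HB replicate 1 (8.88%) and 3 without HB replicate 2 (8.72%), and that of called falls was 2 without HB replicate 1 (12.4%) and 0 without HB replicate 2 (11%). In such fits the remaining library of a stage was assumed to vary as the other stages did.

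The gene that fell was Hist1h2aa, which encodes a testis form of H2A. It had 421 and 248 counts in ES, or 7.47 and 7.11 CPM, and 0.959 and 0.225 CPM in HB, where its log2 fold change was -3.64 ± 0.90 (adjusted p = 0.00856, and 0.0762 without HB replicate 2). In later libraries it had between 0 and 15 counts. Hist1h2ba, the testis H2B gene that lies head to head with it, had 6.10 and 4.85 CPM in ES, 9.16 and 0.901 in HB, and at most 0.631 in any later library. Its HB libraries thus lay on both sides of the ES libraries. Hist1h1t, the testis H1 gene, had 5.46 and 5.31 CPM in ES, 3.37 and 2.85 in HB, and at most 0.991 later. All 3 testis-type genes were read mainly in the early stages. Hist1h2aa and Hist1h2ba have no stem-loop match, since both models stop at the coding end, and Hist1h1t has one.

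**Figure D3:**
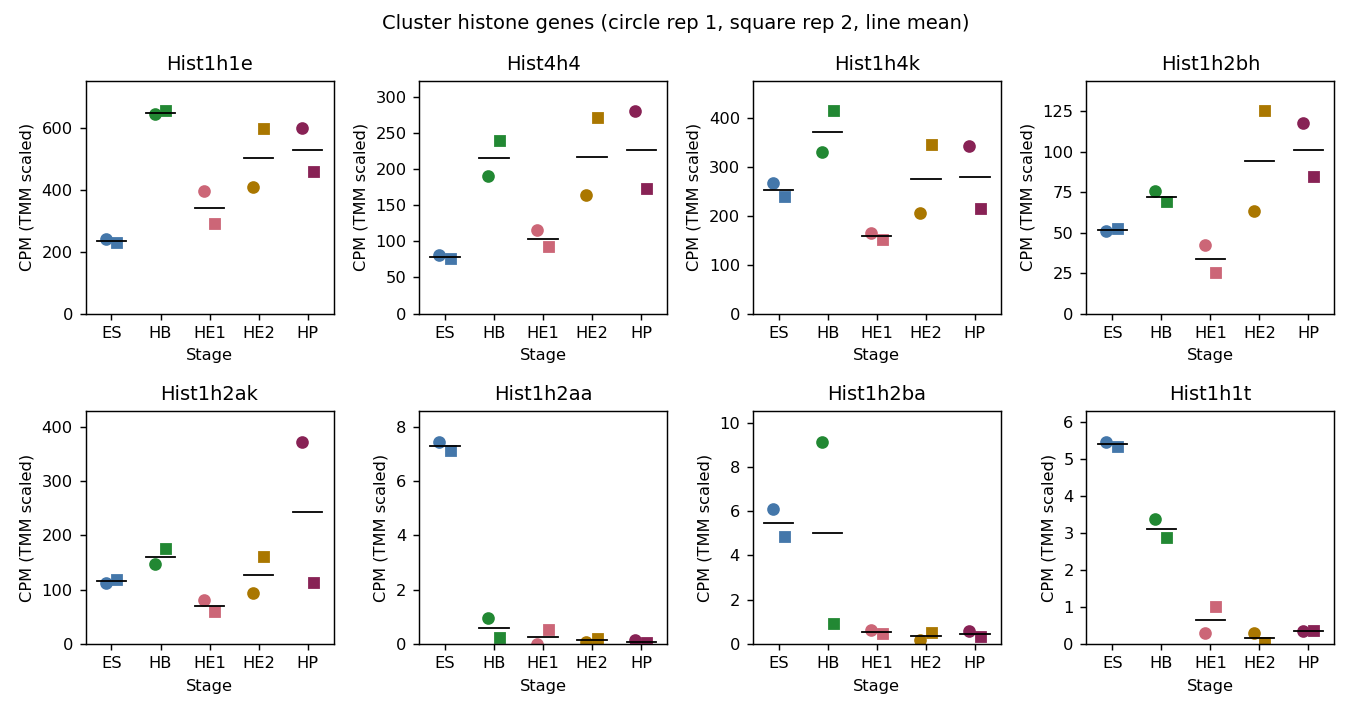
Level (CPM, TMM scaled) of 8 cluster histone genes in each library by stage, with circles for replicate 1, squares for replicate 2 and lines for means of 2 libraries. Hist1h1e and Hist4h4 are lowest in ES, Hist1h2aa and Hist1h1t are read mostly in ES or in ES and HB, and Hist1h2ak has 1 HP library at 373 CPM.

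In HE1 against HB, which compares the first hemogenic endothelium with the cells that formed it, the cluster genes fell together. 47 of 67 were called lower, against 8.19% of all genes, and none was called higher, against 12.7%. At the adjusted p alone 58 were lower (14.8% of all genes) and 0 were higher (17.5%), the same 0 as at an unadjusted p under 0.05 (23.6%) and as by limma-voom and DESeq2 at the full rule. The median log2 fold change was -1.10, against 0.04 for all genes, and 66 of 67 values were negative. For 65 genes both HE1 libraries lay below both HB libraries (32.6% of all genes), and for 0 above (32.9%), and 64 genes were lower at an unadjusted p under 0.05 (20.3%). By class, 4 of 6 H1, 9 of 18 H2A, 16 of 18 H2B, 8 of 12 H3 and 10 of 13 H4 genes fell, with class medians between -1.21 (H2B) and -1.07 (H2A). Marker genes of several cell types were also at higher levels in HE1. The summed level of 4 muscle genes was 27.5 and 26.4 CPM in HB and 630 and 994 CPM in HE1, that of 5 endothelial genes 246 and 217 CPM against 2987 and 1791 CPM, and that of 3 macrophage genes 7.01 and 6.79 CPM against 42.9 and 12.1 CPM. Of the muscle genes Acta2, Tagln and Tnnt2 were called higher, and Myl7 was called lower, at 11.5 and 16 CPM in HB and 0.379 and 1.42 CPM in HE1. Of the endothelial genes 5 of 5 were called higher, and of the macrophage genes 1 of 3. The part of all these markers in the histone result was not tested.

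Hist1h1a, a linker histone gene, had 544 and 586 CPM in HB and 292 and 182 at HE1, and fell by 1.25 ± 0.27 on the log2 scale (adjusted p = 0.00668). Hist1h2ah, an H2A gene, went from 148 and 176 CPM to 77.2 and 65.0 CPM, and Hist1h2bj, an H2B gene of the same run, from 140 and 150 CPM to 79.5 and 64.6 CPM. They fell by 1.19 and 1.01, with adjusted p-values of 0.00920 and 0.00865. Hist1h3e, an H3 gene, went from 329 and 360 CPM to 185 and 140 CPM, and the H4 genes Hist1h4k and Hist1h4f went from 330 and 413 CPM to 165 and 151 CPM and from 337 and 458 CPM to 216 and 154 CPM. These fell by 1.09, 1.23 and 1.11, with adjusted p-values of 0.00572, 0.00682 and 0.0144. The HB and HE1 libraries did not overlap for any of these 6 genes. Hist1h1b (-0.93), Hist2h2bb (-0.83) and Hist1h3i (-0.98) passed the adjusted p but not 2-fold, and Hist1h2ak (-1.19) reached 2-fold with an adjusted p of 0.0638. Hist1h2ak was called without HP replicate 1 (adjusted p = 0.00757), without HP replicate 2 (0.00754), with only these 4 libraries fitted (0.00158) and without a filter on low counts (2.03e-09).

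By the rule for the largest changes, Hist1h2ba (-3.20 ± 0.92, adjusted p = 0.0233), Hist1h1t (-2.24 ± 0.64, 0.0229) and Hist1h2br (-1.66 ± 0.33, 0.00432) came first. Those of the testis-type genes rest on few counts, 15 and 14 for Hist1h2ba and 7 and 30 for Hist1h1t in HE1. That of Hist1h2ba was -0.79 without HB replicate 1 (adjusted p = 0.423), and was lost without HE1 replicate 1 (0.0617) or HE1 replicate 2 (0.121) and by limma-voom (0.148). That of Hist1h1t was lost without HB replicate 1 (0.0757), HB replicate 2 (0.0665) or HE1 replicate 1 (0.0644). The member that did not go down was Hist2h2be, an H2B gene on chromosome 3 with between 24 and 86 counts in a library and a log2 fold change of 0.60 ± 0.49 (adjusted p = 0.371), named here after its value was seen. Across all cluster genes, 24 were called lower without HB replicate 2 (5.48% of all genes in that fit) and 18 without HE1 replicate 2 (7.22%), the library with more RNA of ES and muscle genes, whose part in the result was not tested beyond this count. The calls of Hist1h1a, Hist1h2ah, Hist1h2bj, Hist1h3e and Hist1h4f were among those lost without HE1 replicate 2, with log2 fold changes still between -1.07 and -0.86, and those of Hist1h2ah (adjusted p = 0.0569) and Hist1h4f (0.0950) were also lost without HB replicate 2. Hist1h2bj was just under 2-fold with total counts in place of TMM (-0.98) and with only these 4 libraries fitted (-0.99).

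**Figure D4:**
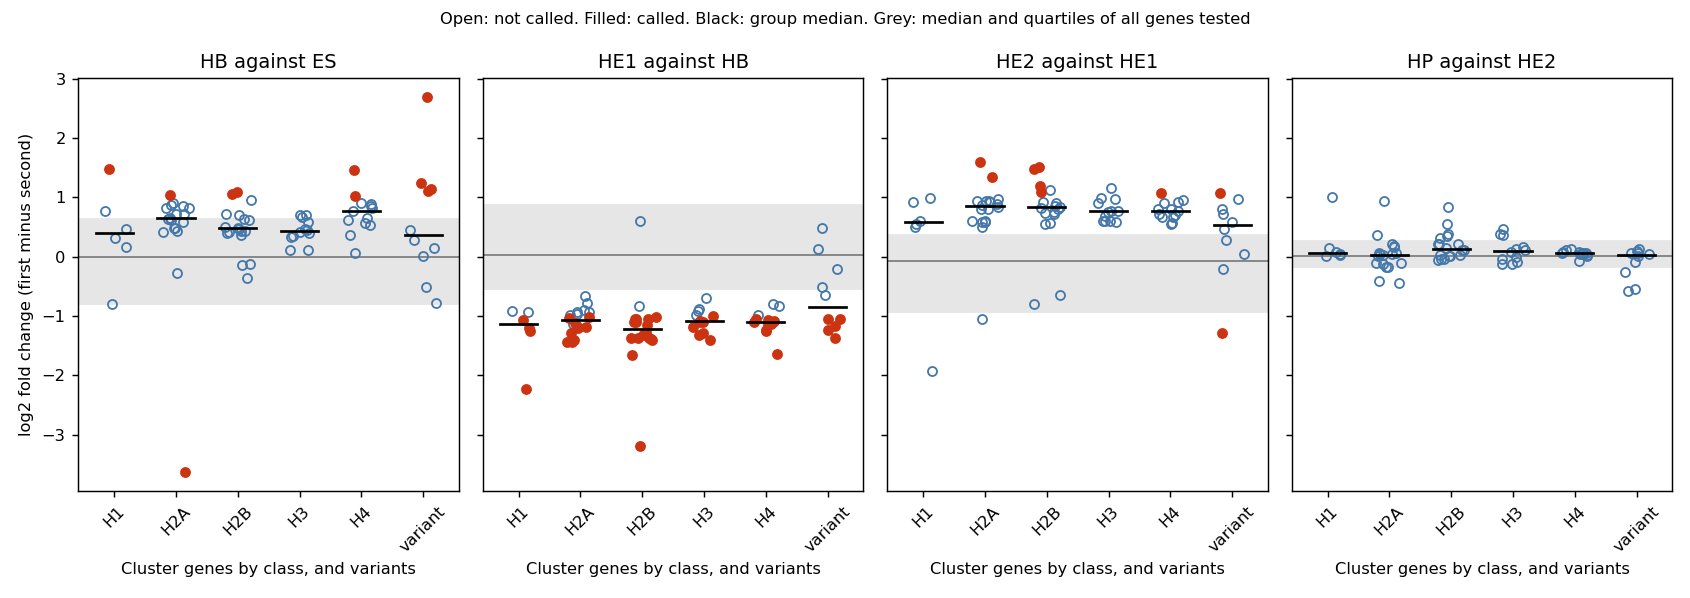
Log2 fold changes of the 67 cluster genes, by class, and of 10 variant genes in 4 comparisons of neighbouring stages. Filled points were called, black lines are group medians, and the grey line and band are the median and quartiles of all 22596 genes. In HE1 against HB the class medians lie near -1.1, below the band, and in HP against HE2 they lie near 0.

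In HE2 against HE1, the step at which CD41 appears on the endothelium, 7 cluster genes rose, against 3.26% of all genes, and none fell, against 5.39%. The median log2 fold change was 0.80, against -0.08 for all genes, and 63 of 67 values were positive. At an unadjusted p under 0.05, 55 were higher (15.7% of all genes) and 1, Hist1h1t, was lower (19.7%), while 16 were higher at the adjusted p alone (6.12%) and 0 lower (7.12%). Both HE2 libraries lay above both HE1 libraries for 60 genes (28.8% of all genes) and below them for 1 (30.4%). No cluster gene was called lower by limma-voom or DESeq2. This comparison shares the HE1 libraries with HE1 against HB, so that a low HE1 value enters both with opposite signs. Among the marker lists given here, 3 of 3 ES, 2 of 4 hemangioblast, 1 of 5 endothelial and 1 of 4 muscle genes were called lower in HE2. Of the blood progenitor genes 5 of 5 were called higher. The part of these markers in the histone result was not tested.

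Hist1h2af, an H2A gene, had 33.4 and 18.0 CPM in HE1, 54.3 and 101 at HE2, and 94.5 and 62.8 at HP. It rose by 1.60 ± 0.34 in HE2 (adjusted p = 0.0187). The H2B genes Hist1h2bf and Hist1h2bh had 27.1 and 13.4 CPM and 42.3 and 25.2 CPM in HE1 and 36.9 and 77.8 CPM and 63.2 and 125 CPM in HE2. They rose by 1.51 ± 0.40 (adjusted p = 0.0375) and 1.48 ± 0.32 (adjusted p = 0.0201). For all 3 genes HE2 replicate 2 was far above HE2 replicate 1, and neither overlapped HE1. The calls were lost without HE2 replicate 2 (adjusted p = 0.157 for Hist1h2af, 0.327 for Hist1h2bf and 0.171 for Hist1h2bh) and without HE1 replicate 2 (0.110, 0.209 and 0.121), and for Hist1h2bf (0.0693) and Hist1h2bh (0.0554) also with only these 4 libraries fitted. The number of called rises was 1 without HE1 replicate 2 (1.56% of all genes in that fit), 1 without HE2 replicate 2 (1.33%), 29 without HE1 replicate 1 (5.61%), 40 without HE2 replicate 1 (4.46%) and 2 with only these 4 libraries fitted (1.92%). 1 gene was called lower without HE1 replicate 1 (12% of all genes) and 1 without HE2 replicate 1 (8.67%).

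In HP against HE2, the step from endothelium to free progenitors, 0 of 67 cluster genes were called in either direction, against 0% of all genes. No cluster gene reached an unadjusted p under 0.05 in edgeR's quasi-likelihood test, against 2.97% of all genes higher and 4.93% lower, and limma-voom and DESeq2 also called 0 of the 67. Over all genes limma-voom called 35 higher and 27 lower and DESeq2 108 higher and 193 lower. The median log2 fold change was 0.06, against 0.01 for all genes. Its direction rested on single libraries: the median was -0.27 without HP replicate 1 (10 of 67 values positive) and -0.22 without HE2 replicate 1 (8 of 67), but 0.47 without HE2 replicate 2 and 0.33 without HP replicate 2 (65 of 67 in each).

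In HP against HE1, which again uses the HE1 libraries, 17 cluster genes rose, against 5.35% of all genes, and none fell, against 11.2%. No cluster gene was lower at an unadjusted p under 0.05, or called lower by limma-voom or DESeq2. The median log2 fold change was 0.86, against -0.02 for all genes, and 40 genes were higher at the adjusted p alone (11% of all genes) and 0 lower (13.9%). At an unadjusted p under 0.05, 62 were higher (17.7%) and 0 lower (20.9%). Both HP libraries lay above both HE1 libraries for 62 genes (28.7%) and below them for 0 (28.3%). Among the marker lists given here, 3 of 3 ES, 4 of 4 hemangioblast and 5 of 5 endothelial genes were called lower in HP. So were 2 of 4 muscle and 1 of 3 macrophage genes. Called higher were 5 of 5 blood progenitor and 2 of 3 macrophage genes. The part of these markers in the result was not tested either. The largest rises were those of Hist1h2ak, Hist1h2af and Hist1h2bh. Hist1h2af and Hist1h2bh rose by 1.62 ± 0.34 and 1.59 ± 0.32 (adjusted p = 0.00708 and 0.00597). Hist1h2bh had 118 and 84.2 CPM in HP, both above its HE1 libraries. Without HE1 replicate 2 the adjusted p-values of these genes were 0.0547 and 0.0507, and without HP replicate 1 they were 0.0649 and 0.0540. The count of called rises was 0 without HE1 replicate 2 (3.87% of all genes in that fit), 1 without HP replicate 1 (3.16%), 42 without HE1 replicate 1 (7.29%) and 43 without HP replicate 2 (5.67%).

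Hist1h2ak had 373 and 112 CPM in HP and 81.2 and 59.4 CPM in HE1, with 93.1 and 159 CPM in HE2. Its rise of 1.79 ± 0.45 (adjusted p = 0.0169) rests on HP replicate 1, without which it was 0.69 (adjusted p = 0.198), and it was also lost without HE1 replicate 2 (0.120). The H2A pseudogene Hist1h2aj, at 21721457 to 21721808 on chromosome 13 and in the same run of genes, stood out in the same library. It had 9912 counts in HP replicate 1 and between 20 and 638 in the other libraries, or 226 CPM against 4.10 CPM in HP replicate 2. Of its 100-base stretches 91.7% occur in other genes, and whether this library holds RNA from the pseudogene itself was not tested.

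The replicates of a stage differed over the cluster genes as a body. HE2 replicate 1 was below HE2 replicate 2 in 65 of 67 genes, with a median log2 difference of -0.70, and HP replicate 1 was above HP replicate 2 in 64 of 67, with a median of 0.58. HE1 replicate 1 was above HE1 replicate 2 in 60 genes (median 0.40), ES replicate 1 above ES replicate 2 in 56 (0.10) and HB replicate 1 above HB replicate 2 in 13 (-0.18). Over all genes the medians were between 0.00 and 0.03. Cluster genes thus moved together between libraries of the same label as well as between stages. In each of the 5 stages, the replicate with more cluster histone RNA also had the higher sum of the 30 S phase genes, the 10 expressed variant genes, the 18 genes that make or process histone mRNA and the 30 histone chaperones and exchange factors, and in 4 of 5 also that of the 20 genes of G2 and mitosis. With total counts in place of TMM the variant genes kept this order in 5 of 5 stages, the S phase and the G2 and mitosis genes in 4, and the mRNA processing genes and the chaperones in 3.

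A list of 30 other genes of S phase holds mainly the replication machinery and nucleotide supply, such as Pcna, Mcm2 and Rrm2. It shares Slbp with the list of histone mRNA processing below and Mcm2 with that of chaperones, so that both genes are counted in 2 lists. The 30 genes summed to 5820 and 5739 CPM in ES, 5043 and 5256 in HB, 3401 and 2809 at HE1, 4164 and 5680 at HE2, and 5608 and 4915 at HP. HE1 was lowest here too, but HB was not above ES. Within a library, cluster histone RNA was 1.18 and 1.12 times this sum in ES, 1.92 and 2.13 times in HB, 1.65 and 1.49 times in HE1, 1.57 and 1.82 times in HE2, and 1.92 and 1.42 times in HP. Both ES libraries were below all others, and the HB libraries reached the highest values, with HP replicate 1 next to HB replicate 1. In HE1 against HB, 4 of the 30 S phase genes were called lower (8.19% of all genes) and 21 were lower at the adjusted p alone (14.8%), with a median log2 fold change of -0.62. In HE2 against HE1, 1 was called higher (3.26% of all genes) and 19 were higher at the adjusted p alone (6.12%), with a median of 0.68. Of 20 genes of G2 and mitosis, 2 were called lower in HE1 against HB (8.19% of all genes), with a median of -0.64, and none was called higher in HE2 against HE1 (3.26%), where 16 were higher at the adjusted p alone (6.12%), with a median of 0.78. The part of cell cycle differences in the histone results was not tested.

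Of 18 genes that make or process histone mRNA, 1 was called lower in HE1 against HB, against 8.19% of all genes. This was Slbp, the stem-loop binding protein itself and 1 of the 4 S phase genes called above, with 111 and 114 CPM in ES, 149 and 138 in HB, 71.4 and 59.9 at HE1, 88.3 and 111 at HE2, and 122 and 100 at HP. Its HB libraries were above and its HE1 libraries below all others. Slbp fell by 1.13 ± 0.17 in HE1 (adjusted p = 0.000738) and was 0.60 ± 0.16 higher in HE2 (adjusted p = 0.0399, under 2-fold). Npat, named for its role as the factor that turns on the clusters, had log2 fold changes between -0.18 and 0.06 in all 5 comparisons, none with an adjusted p under 0.369. Ccne1, which encodes cyclin E1, was the gene of this list called in HB against ES, where it fell by 1.90 ± 0.19 (adjusted p = 3.05e-05), from 175 and 166 CPM to 46.7 and 44.8 CPM, opposite in direction to the median of the cluster genes, and 17.3% of all genes were called lower there.

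Of 30 histone chaperones and exchange factors, 2 fell in HB against ES (17.3% of all genes) and 3 fell in HE1 against HB (8.19%), and none was called in the other 3 comparisons. Atrx, which with DAXX places H3.3 at repeats, had 1015 and 1048 CPM in ES and 330 and 308 in HB, and fell by 1.69 ± 0.18 (adjusted p = 4.74e-05). Nasp, a carrier of free H3 and H4 that holds their reserve in the cell, had 499 and 490 CPM in HB and 213 and 176 at HE1, and fell by 1.35 ± 0.17 (adjusted p = 0.000264). Npm1 and Npm3, which bind histones in the nucleolus, had log2 fold changes of -1.02 and -1.36 and fell too. Hira, named for its role, which leads H3.3 deposition in genes, had an adjusted p of at least 0.0945 in all 5 comparisons.

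Of the 10 variant genes tested, 4 were called in HB against ES, 5 in HE1 against HB, 2 in HE2 against HE1, 0 in HP against HE2 and 3 in HP against HE1. The shares of all genes called in either direction were 28.8%, 20.9%, 8.65%, 0% and 16.5%. In HP against HE2, 1 variant gene, H1fx, was lower at an unadjusted p under 0.05 in edgeR's test, and limma-voom and DESeq2 called 0. In HE1 against HB, 2 were called without HE1 replicate 2 (16.8% of all genes in that fit). In HE2 against HE1, 1 was called without HE1 replicate 2 (2.66%) and 0 without HE2 replicate 2 (1.73%). In HP against HE1, 5 were called without HE1 replicate 1 (22.4%) and 5 without HP replicate 2 (13.5%).

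Among the linker variants, H1f0, the H1.0 gene known from cells that leave the cycle, had 20.9 and 21.7 CPM in ES, 117 and 158 in HB, 66.8 and 49.9 at HE1, 61.0 and 59.9 at HE2, and 57.6 and 42.9 at HP. The ES libraries were below and the HB libraries above all others. H1f0 rose in HB by 2.69 ± 0.22 (adjusted p = 8.22e-06), the largest change of any variant gene tested, and fell by 1.24 ± 0.20 in HE1 (adjusted p = 0.00146). H1fx, the H1X gene, had 23.4 and 22.3 CPM in ES, 46.7 and 54.1 in HB, 22.3 and 16.8 at HE1, 17.9 and 16.1 at HE2, and 13.3 and 9.41 at HP. It rose in HB by 1.14 ± 0.21 (adjusted p = 0.00147) and fell by 1.37 ± 0.21 in HE1 (adjusted p = 0.000974), and in HP against HE1 it was at -0.78 (adjusted p = 0.0223). The highest libraries of both genes were those of HB, without overlap with any other stage.

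Among the H2A variants, H2afx had 368 and 343 CPM in ES, 348 and 367 in HB, 184 and 162 at HE1, 269 and 407 at HE2, and 422 and 282 at HP. Both HE1 libraries were below all others. H2afx, the variant with a stem-loop, fell by 1.05 ± 0.23 in HE1 (adjusted p = 0.00684), was at 0.97 in HE2 against HE1 (adjusted p = 0.0270) and rose in HP against HE1 by 1.03 ± 0.23 (adjusted p = 0.00986), but was at 0.01 in HB against ES. Without HE1 replicate 2 the change in HE1 was -0.95 (adjusted p = 0.0415) and that in HP 0.93 (0.0630), and without HP replicate 1 the latter was 0.72 (0.10). It was also under 2-fold with total counts (0.99) and with only these 4 libraries fitted (0.98).

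H2afz, which encodes H2A.Z of promoters and enhancers, had 336 and 326 CPM in ES, 209 and 253 in HB, 151 and 146 at HE1, 254 and 372 at HE2, and 398 and 284 at HP. HE1 was again below all others. H2afz rose in HE2 against HE1 by 1.08 ± 0.22 (adjusted p = 0.0157) and in HP against HE1 by 1.20 ± 0.22 (adjusted p = 0.00334). The call in HE2 was lost without HE1 replicate 2 (adjusted p = 0.0764) or HE2 replicate 2 (0.119), with only these 4 libraries fitted (0.0551) and, at 0.98, with total counts, and the change in HP was 0.95 without HP replicate 1 (adjusted p = 0.0361). H2afv, its close relative, had 69.4 and 81.7 CPM in HB and 39.0 and 28.0 CPM in HE1 and fell by 1.17 ± 0.22 (adjusted p = 0.00328), with -0.95, under 2-fold, without HE1 replicate 2. It was 0.80 and 0.81 higher in HE2 and HP against HE1 (adjusted p = 0.0415 and 0.0242).

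H2afy2, which encodes the macroH2A2 protein of silent chromatin, went another way. It had 20.2 and 19.5 CPM in ES, 42.5 and 51.7 in HB, 26.7 and 19.0 at HE1, 11.8 and 6.92 at HE2, and 6.55 and 6.33 at HP. Every HE2 and HP library was below every library of the other stages. It rose in HB by 1.25 ± 0.25 (adjusted p = 0.00286), fell by 1.05 ± 0.25 in HE1 (adjusted p = 0.0110), fell by 1.29 ± 0.26 in HE2 against HE1 (adjusted p = 0.0158) and fell by 1.83 ± 0.26 in HP against HE1 (adjusted p = 0.00109). The fall in HE1 was lost without HB replicate 2 (adjusted p = 0.0729) or HE1 replicate 2 (0.0731), and that in HE2 without HE2 replicate 2 (0.113) or with only these 4 libraries fitted (0.0645). Without HE1 replicate 1 that in HE2 was just under 2-fold, at an adjusted p of 0.0309.

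Its relative H2afy, for macroH2A1, was between 89.5 and 157 CPM in all libraries and was not called in any comparison, with log2 fold changes from 0.10 to 0.39. H2afj, an H2A variant gene next to Hist4h4 on chromosome 6, was lowest in HB, with 19.0 and 21 CPM against 35.4 and 33.3 in ES and 25.3 to 55.8 later. Its change in HB was -0.78 ± 0.23 (adjusted p = 0.0185), under 2-fold.

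The H3.3 protein is encoded by H3f3a and H3f3b. H3f3b had 312 and 303 CPM in ES, 622 and 701 in HB, 659 and 480 at HE1, 743 and 828 at HE2, and 860 and 621 at HP. The ES libraries were below all others and both HE2 libraries above those of HB and HE1, and H3f3b rose in HB by 1.10 ± 0.21 (adjusted p = 0.00185). H3f3a had 152 and 149 CPM in ES and 121 to 282 CPM later, and was called in no comparison. In HP against HE1 it was at 0.77 (adjusted p = 0.0290), under 2-fold, and at 1.04 without HE1 replicate 1 (adjusted p = 0.0149), where it was called. H3f3aos, antisense to H3f3a, had between 1.11 and 3.20 CPM and was called in no comparison.

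**Figure D5:**
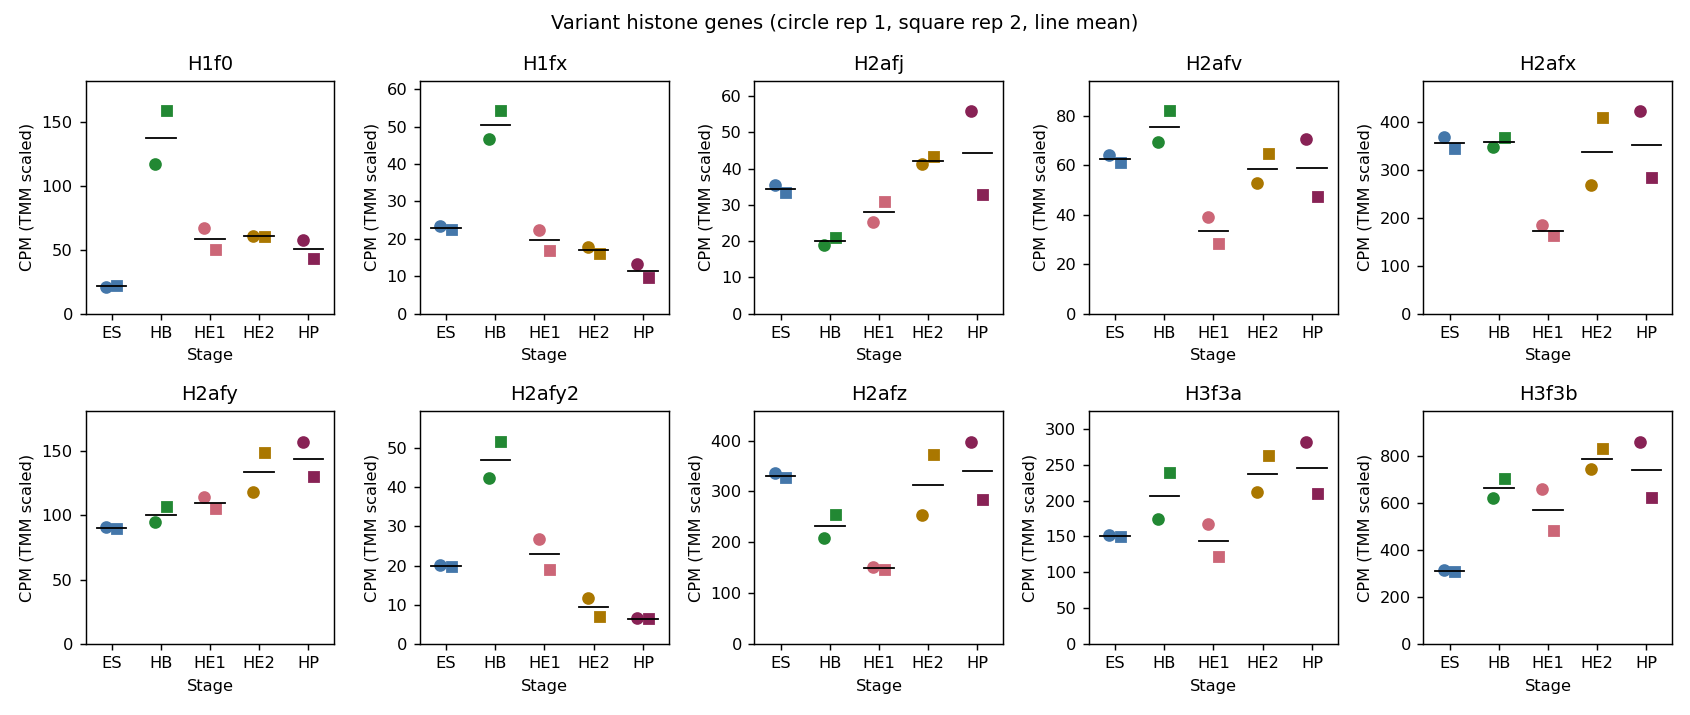
Level (CPM, TMM scaled) of the 10 variant histone genes tested in each library by stage, with circles for replicate 1, squares for replicate 2 and lines for means of 2 libraries. H1f0, H1fx and H2afy2 are highest in HB, H2afx and H2afz are lowest in HE1, and H3f3b is lowest in ES.

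By position, the 67 cluster genes form 7 runs with gaps over 100000 bases (build GRCm38): 29 genes at chr13:23531050-23764406, 18 at chr13:21715763-21837530, 5 at chr13:22035164-22043676, the pair Hist1h2ba and Hist1h2aa at chr13:23933773-23934851, 10 genes at chr3:96219865-96270132, 2 at chr11:58948920-58956830 and Hist4h4 at chr6:136801553-136804415. In HE1 against HB the median log2 fold change was -1.10, -1.20 and -1.11 in the 3 long runs of chromosome 13, -0.91 on chromosome 3 and -0.90 on chromosome 11. In HE2 against HE1 the same runs were at 0.80, 0.85, 0.83, 0.60 and 0.57. The testis-type pair was the run with a different sign, at -1.88 in HB against ES and -0.86 in HE2 against HE1. Each value is a median of 2 genes, and that in HE2 against HE1 rests on few counts, with neither gene called. Hist1h2aa had 0 and 15 counts in HE1 and 2 and 6 in HE2. Hist1h2ba had 15 and 14 in HE1 and 6 and 16 in HE2.

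The cluster genes were also divided by features that bear on counting. In HE1 against HB the median was -1.08 in the 24 genes with over 50% of their stretches shared with another gene and -1.06 in the 20 genes with under 10%. It was -1.10 in the 46 genes with a stem-loop in the model and -1.13 in the 21 without. In the 60 cluster genes that overlap no other gene on the same strand it was -1.11, and 44 of them were called lower. In HE2 against HE1 the median was 0.85 in the genes with over 50% shared and 0.60 in those with under 10%, and in HP against HE1 it was 0.89 and 0.69. In HB against ES, 3 of the 6 called rises were in genes without overlap.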

How the data were processed

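Per the file headers, the authors deposited raw counts per gene and library, made with featureCounts (v2.0.1) from read pairs on Ensembl exons (GRCm38), reverse-stranded, without reads that map to several places and with a fragment on several genes counted on each. Their processing notes name Trimmomatic, HISAT2 (v2.2.1), edgeR (v3.40.2), limma (v3.17) and R (v4.2.3). The authors' matrix of 1 expression score per stage was used for symbols only. It names 72 members, and all 89 were named through GENCODE.

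Genes were filtered with filterByExpr and scaled with TMM. A quasi-likelihood model of stage was fitted to all 10 libraries with edgeR (version 4.0.16, under R version 4.3.3). The 5 comparisons were adjusted by Benjamini-Hochberg over all 22596 genes, with calls as defined above. The fit was also run on simulated data with known changes, and the outcome is not given here. limma-voom (v3.58.1) and DESeq2 (v1.42.0) were alternatives. Named were the 2 cluster genes with the highest CPM per kilobase in each class, the 3 largest called changes without overlap in each direction, and every variant tested. Members and lists were chosen with earlier results of these data known. A gene was matched to a stem-loop where an annotated transcript held, at any position, a 16-base pattern of the known form. Pairing of the arms was not checked by the search. Figures used Python (v3.11.15) and matplotlib (v3.10.9).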

Additional observations from a re-analysis of the deposited data

How the results depend on the processing

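Of 1071 values of single genes under the alternatives, 962 kept their side of the threshold, 58 lost a call, 51 gained one and none changed direction. The median log2 fold change of the cluster genes lay between 0.49 and 0.69 in HB against ES, -1.37 and -0.93 in HE1 against HB, 0.41 and 1.13 in HE2 against HE1, -0.27 and 0.47 in HP against HE2, and 0.51 and 1.14 in HP against HE1.

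When single libraries were left out, cluster genes called higher ranged from 2 to 10 in HB against ES, 1 to 40 in HE2 against HE1 and 0 to 43 in HP against HE1. Cluster genes called lower ranged from 0 to 2 in HB against ES, 18 to 56 in HE1 against HB and 0 to 1 in HE2 against HE1. Variant genes called ranged from 2 to 5 in HE1 against HB, 0 to 3 in HE2 against HE1 and 2 to 5 in HP against HE1. Without a fold threshold, 22 cluster genes were higher in HB against ES (17.8% of all genes). In HE2 against HE1 16 were higher (6.12%) and in HP against HE1 40 (11%). By the same rule 4 variant genes were called in HE2 against HE1, 3 higher (6.12%) and 1 lower (7.12%). There were 6 in HP against HE1, 4 higher (11%) and 2 lower (13.9%). Without a filter on low counts, 11 cluster genes were called higher (2.44% of all genes in that fit) and 1 lower (7.34%) in HE2 against HE1. With only the 4 libraries compared, 2 cluster genes were called higher there (1.92% of all genes in that fit). The same fit called 0 variant genes (2.82% of all genes in either direction), and total counts in place of TMM gave 1 (7.65%). The cause was not tested. Ratios of summed cluster levels between stages moved by less than 1 SD with total counts in place of TMM or without overlapping genes.

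Libraries of a stage share only a number with those of other stages. The correlation of replicate differences between stages was -0.316 to 0.213. With replicate number as a block, 44 cluster genes were called lower in HE1 against HB (7.44% of all genes in that fit) in place of 47. No call of a named gene changed.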

Other observations

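The pseudogene Hist1h2al had 131 and 126 CPM in ES, 234 and 262 in HB, 124 and 109 at HE1, 142 and 202 at HE2, and 223 and 142 at HP. Its HB libraries were above and its HE1 libraries below those of all other stages. H3f3c, a copy of H3f3a annotated as a pseudogene, had between 5.51 and 13.0 CPM.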
